A study of Homo sapiens with 6 samples.

Results

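The transcripts described here are those of 32 genes of the hypoxia-inducible factor (HIF) pathway, chosen by gene name among the 58302 genes of the deposited table: HIF subunits, the enzymes that sense oxygen, and targets of HIF. All 32 names were found, 1 row each, and all 32 passed the filter on low counts, among 15847 genes tested. They were measured by RNA-seq in cells labelled A549, a line from a human lung adenocarcinoma, grown in DMEM with fetal bovine serum. The cells of 3 libraries had been given S541, a compound called 5n as well, at 1.0 µM for 48 h, and those of the other 3 libraries DMSO, the solvent, for 48 h. The series' title concerns compounds that disturb mitochondria in lung adenocarcinoma. The labels state neither an oxygen level nor whether each replicate was its own culture; p-values therefore rest on library-to-library spread that may be technical.

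HIF is a transcription factor made of an alpha subunit, encoded by *HIF1A*, *EPAS1* or *HIF3A*, and a beta subunit such as *ARNT*. When oxygen is plentiful, prolyl hydroxylases (*EGLN1*, *EGLN2*, *EGLN3*) hydroxylate the alpha subunit, and the *VHL* protein then directs it to the proteasome, so HIF is governed largely at the protein level. When oxygen is scarce, or the hydroxylases are inhibited, the alpha subunit accumulates and raises transcripts for glucose uptake, pH control, vessel growth and collagen modification.

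Total counts per library ranged from 13956648 to 15794403 with S541 and from 14927663 to 17044139 with DMSO, and the 32 genes together had from 38245 to 42997 counts with S541 and from 33587 to 39729 with DMSO. Of 9 genes listed as markers of A549 cells, *KRT7*, *KRT8*, *KRT18* and *NQO1* were abundant, whereas *ALDH1A1* had 0 to 2 counts per library with S541 and 0 in each DMSO library, and *AKR1B10* had 10 to 13 with S541 and 12 to 16 with DMSO. Both genes are usually abundant in A549 cells, so these levels go against the label. *CDH1* had 7 to 10 counts with S541 and 14 to 19 with DMSO, and *KRT19* had 11 to 25 with S541 and 2 to 8 with DMSO. The 9 together summed to 3375 to 3920 CPM (the count relative to the TMM-scaled library size) with S541 and 4016 to 4622 CPM with DMSO, *KRT8* (log2 fold change −0.50) and *KRT18* (−0.63) being the markers of this list that fell. The 6 alveolar type II markers stayed under 1 CPM, as did 6 retina markers, listed because retinal profiles are named in the design text of the series. Summed markers of fibroblasts were 31.7 to 37.2 CPM with S541 and 38.5 to 57.8 CPM with DMSO, those of endothelium 8.13 to 13.8 and 11.5 CPM (all DMSO libraries rounding to this), and those of leukocytes 2.07 to 2.94 and 2.16 to 3.18 CPM. *LUM*, *KDR*, *CD3E* and *LST1* were at 0, and *PDGFRB* fell (−0.96). The part of these differences in the results was not tested.

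Of the 32 HIF pathway genes, 2 rose with S541 and none fell at an adjusted p-value under 0.05 (edgeR quasi-likelihood test, Benjamini-Hochberg over all tested genes). The carbonic anhydrase gene *CA12* was 2.08-fold and the collagen lysyl hydroxylase gene *PLOD1* 1.35-fold higher. These are 6.25% of the members, while 8.19% of all tested genes passed in either direction, 4.02% as higher and 4.17% as lower in S541. DESeq2 called 4 members as higher, with 1770 genes called in all, and limma-voom called 3, with 1254 in all. Neither called any of the 32 as lower. Without adjustment, 7 members (21.9%) had p under 0.05, 6 higher and 1 lower, against 24.8% of all tested genes (12.4% higher and 12.4% lower). The share of members called in either direction was close to that of all genes. The median log2 fold change of the members was 0.20, with 24 of 32 (75%) above 0, beside a median of −0.0019 and 49.8% above 0 over all tested genes. Many members were low in the same libraries, as given below, so they are not 32 separate observations of a change. The members' median was 0.32 without S541 replicate 2, and from 0.14 to 0.23 with any other library left out. All S541 libraries lay above all DMSO libraries in 8 members (25%), against 15.9% of all tested genes, and below them in 1 member (3.13%), against 15.2%; in either direction it was 31.1% of all tested genes. In bulk RNA, fewer cells with a transcript and less transcript per cell cannot be told apart.

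**Figure D1:**
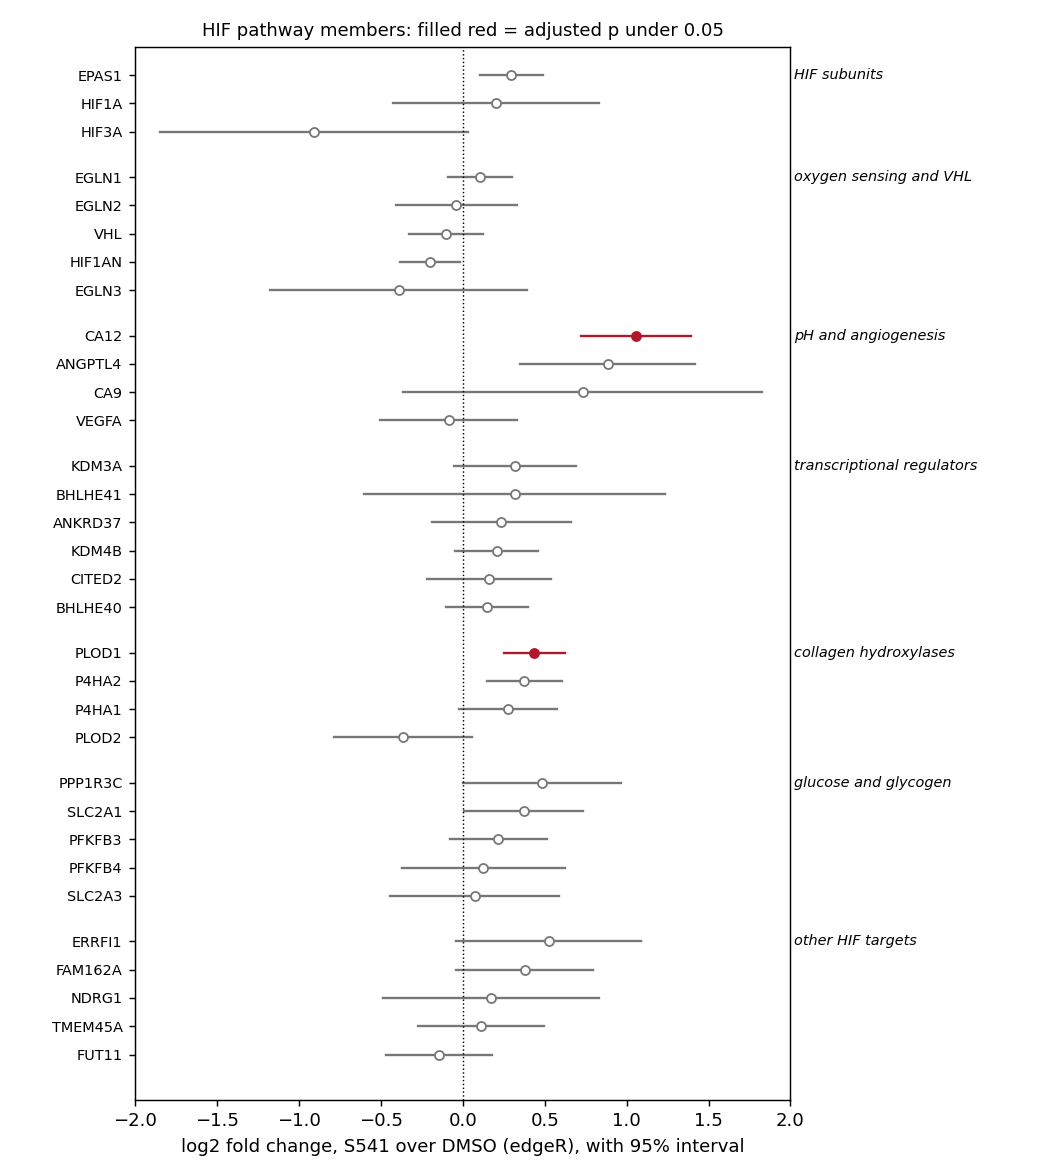
Log2 fold change of S541 over DMSO (x axis) for each of the 32 genes (y axis, by role), with 95% intervals from edgeR, 3 libraries a group. Filled red points mark the 2 genes that passed, CA12 at 1.06 and PLOD1 at 0.44; most other intervals include 0.

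Among the HIF subunits no transcript passed. *HIF1A* had 209, 221 and 198 CPM in S541 replicates 1 to 3 and 239, 100.02 and 206 CPM in DMSO replicates 1 to 3. DMSO replicate 2 stood alone, far below every other library, and the S541 libraries lay inside the DMSO range. The log2 fold change was 0.20 (SE 0.27, adjusted p = 0.696, edgeR) and turned to −0.091 without DMSO replicate 2. *EPAS1*, which encodes HIF-2 alpha, had 234, 227 and 245 CPM with S541 and 179, 205 and 191 CPM with DMSO. Its groups did not overlap, and its log2 fold change of 0.29 (SE 0.08, 95% interval 0.10 to 0.49) missed the threshold at an adjusted p = 0.0714 (edgeR). *EPAS1* passed in 1 of the 16 alternative fits, that without DMSO replicate 2 (adjusted p = 0.0464). With any other library left out the adjusted p was 0.140 to 0.190 (edgeR). *HIF3A*, whose product can restrain the other subunits, was near the floor, with 8, 8 and 19 counts with S541 and 25, 17 and 27 counts with DMSO, giving −0.91 on the log2 scale (SE 0.41, adjusted p = 0.218, edgeR).

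Compared per length on the deposited FPKM scale, *HIF1A* averaged 21.6 ± 1.46 FPKM with S541 and 18.5 ± 7.50 FPKM with DMSO (SD, n = 3 each here and below). *EPAS1* averaged 20.7 ± 0.586 and 16.5 ± 1.00 FPKM, so the levels of these subunits were within their spread of each other in both groups. *HIF3A* was far lower, at 0.0607 ± 0.0310 FPKM with S541 and 0.114 ± 0.0300 FPKM with DMSO.

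The oxygen sensors gave no call, and 4 of 5 had a fold change below 0, where 49.8% of all tested genes lay above 0. That of *EGLN2* changed sign in 2 of the fits with 1 library left out. *EGLN1*, the main prolyl hydroxylase in most cells, averaged 145 ± 5.39 CPM with S541 and 135 ± 8.93 CPM with DMSO (log2 fold change 0.10, 95% interval −0.09 to 0.30). *EGLN2* averaged 62.1 ± 7.17 and 63.8 ± 13.6 CPM, but 30.6% of its exon bases are shared with other gene models on the same strand, *RAB4B-EGLN2* among them, so the source of its reads is uncertain. *EGLN3*, itself induced by HIF in many cells, had 5.54, 4.13 and 7.43 CPM with S541 and 10.7, 4.44 and 7.32 CPM with DMSO. Its groups overlapped, and the log2 fold change of −0.39 had a 95% interval from −1.17 to 0.39. With 1 DMSO library left out it was −0.047 (replicate 1) or −0.66 (replicate 2), and with 1 S541 library left out −0.20 (replicate 2) or −0.63 (replicate 3).

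*HIF1AN*, which encodes the asparaginyl hydroxylase that blocks the recruitment of coactivators, was the single member with every S541 library below every DMSO library. It had 100.03, 101 and 98.2 CPM with S541 and 112, 121 and 110.01 CPM with DMSO. The log2 fold change of −0.20 (SE 0.08) did not pass (adjusted p = 0.172, edgeR). *VHL* averaged 49.2 ± 4.31 CPM with S541 and 52.9 ± 1.82 CPM with DMSO (−0.10, 95% interval −0.33 to 0.12). On the FPKM scale the sensors ranked *EGLN1* first (19.2 ± 0.880 with S541, 17.6 ± 1.33 with DMSO), then *HIF1AN* (6.80 ± 0.202 and 7.65 ± 0.332), *EGLN2* (3.45 ± 0.436 and 3.48 ± 0.753) and *EGLN3* (0.596 ± 0.165 and 0.773 ± 0.328), with no overlap between neighbours in this order. *VHL*, at 6.82 ± 0.647 and 7.19 ± 0.290 FPKM, did not differ from *HIF1AN* beyond their spread.

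**Figure D2:**
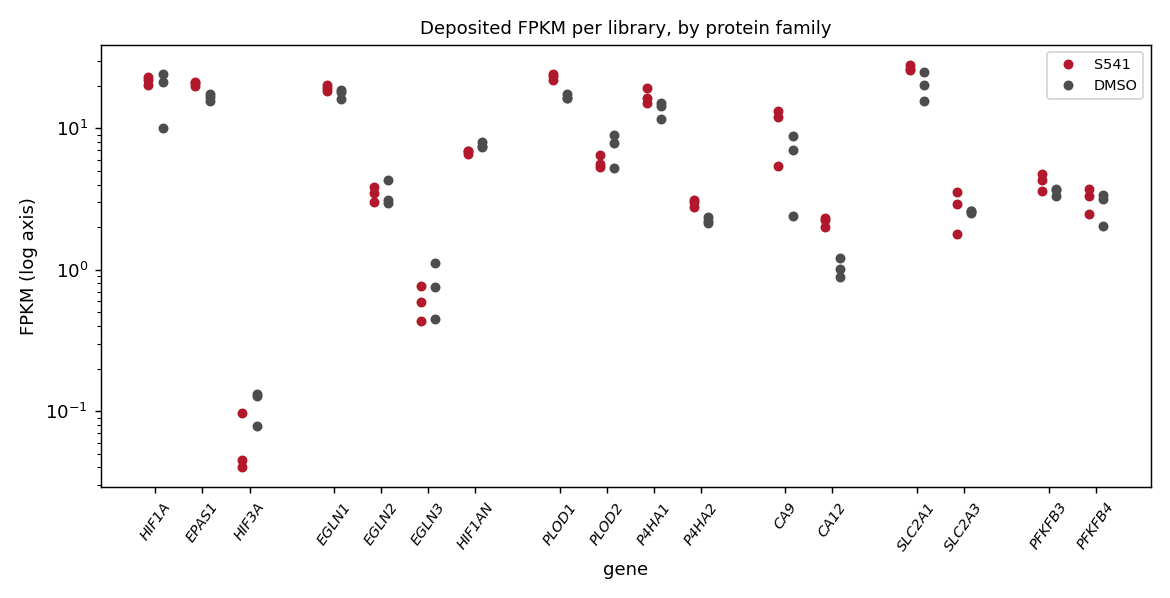
Deposited FPKM (y axis, log scale) of each library for members of the same protein family (x axis), S541 in red and DMSO in grey. HIF1A and EPAS1 lie at similar levels and HIF3A far below them; EGLN1 exceeds EGLN2 and EGLN3; CA9 lies above CA12 in every library.

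Carbonic anhydrases at the cell surface convert carbon dioxide and water to bicarbonate and protons and so control pH around cells. *CA12* (ENSG00000074410, chromosome 15, 63321378 to 63382161, hg38) had 26.6, 23.1 and 26.7 CPM with S541 and 10.4, 12.1 and 14.2 CPM with DMSO. The lowest S541 library was well above the highest DMSO library. The log2 fold change was 1.06 (SE 0.15, adjusted p = 0.00775, edgeR; 380, 369 and 413 counts with S541, 154, 202 and 234 with DMSO), and it was called in each of the 16 alternative fits tried. The authors' deposited table gives 1.06 with a Q-value of 3.37e-05.

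*CA9*, the relative of *CA12* that is among the most used hypoxia markers, had a higher mean with S541 and wide scatter. It had 34.9, 14.3 and 32.6 CPM with S541 and 23.9, 6.54 and 18.9 CPM with DMSO. Replicate 2 was the low library in both groups, and S541 replicate 2 lay below DMSO replicates 1 and 3. The log2 fold change of 0.73 (SE 0.47, 95% interval −0.36 to 1.83) did not pass (adjusted p = 0.391, edgeR), and it was 1.10 without DMSO replicate 1 and 0.35 without DMSO replicate 2. Exons of *ARHGEF39*, on the other strand, overlap 38.5% of the exon bases of *CA9*, and use of strand in counting was not given in the sources used here. On the FPKM scale *CA9* exceeded *CA12*, with 10.2 ± 4.26 against 2.20 ± 0.174 FPKM in S541 libraries and 6.08 ± 3.33 against 1.04 ± 0.163 FPKM in DMSO libraries.

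The promoters of *CA12* and *CA9* are shown because HIF binds the hypoxia response element, whose core is ACGTG or GCGTG, and *CA12* is the member with the lowest adjusted p-value while *CA9* is the classical target. Each line gives the 250 bases before the transcript start from RefSeq (GRCh38.p14), 5′ to 3′ on the gene's strand, with ACGTG and GCGTG in capitals, or CACGT and CACGC where the core is on the other strand. The *CA12* stretch is chr15:63381847-63382096 on the minus strand and the *CA9* stretch is chr9:35673678-35673927 on the plus strand.
CA12: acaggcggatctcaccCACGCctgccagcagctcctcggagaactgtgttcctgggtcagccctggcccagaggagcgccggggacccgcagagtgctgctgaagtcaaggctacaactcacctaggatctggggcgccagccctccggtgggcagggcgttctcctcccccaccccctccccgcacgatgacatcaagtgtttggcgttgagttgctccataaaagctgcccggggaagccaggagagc
CA9: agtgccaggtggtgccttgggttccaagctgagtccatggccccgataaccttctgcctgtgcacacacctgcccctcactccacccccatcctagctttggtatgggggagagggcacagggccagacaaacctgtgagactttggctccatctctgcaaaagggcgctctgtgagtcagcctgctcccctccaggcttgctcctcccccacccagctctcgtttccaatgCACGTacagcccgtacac
*CA12* holds GCGTG on the other strand at −234 to −230, counted from the start, and again at 40 to 44, beyond the printed stretch. *CA9* holds ACGTG on the other strand at −18 to −14.

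The secreted lipase inhibitor *ANGPTL4*, induced by HIF and by fatty acid receptors, had 95.9, 71.7 and 97.2 CPM with S541 and 65.9, 35.3 and 42.2 CPM with DMSO. All S541 libraries were higher, with the nearest pair being S541 replicate 2 and DMSO replicate 1. Its log2 fold change of 0.89 (SE 0.23) missed the threshold (adjusted p = 0.0566, edgeR). It passed in 4 of the 16 alternative fits, among them DESeq2 (adjusted p = 0.00190), limma-voom (0.0474) and the fit without DMSO replicate 1 (0.0202). With any other library left out it did not pass (adjusted p from 0.0886 to 0.169, edgeR), nor with glmTreat (0.140). The authors' deposited table gives *ANGPTL4* a Q-value of 0.00334. The vessel growth factor *VEGFA*, the best known HIF target, had 129, 102 and 96.9 CPM with S541 and 139, 87.4 and 122 CPM with DMSO. Its groups overlapped, and the log2 fold change was −0.08 with a 95% interval from −0.50 to 0.33, turning to 0.060 without DMSO replicate 1.

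**Figure D3:**
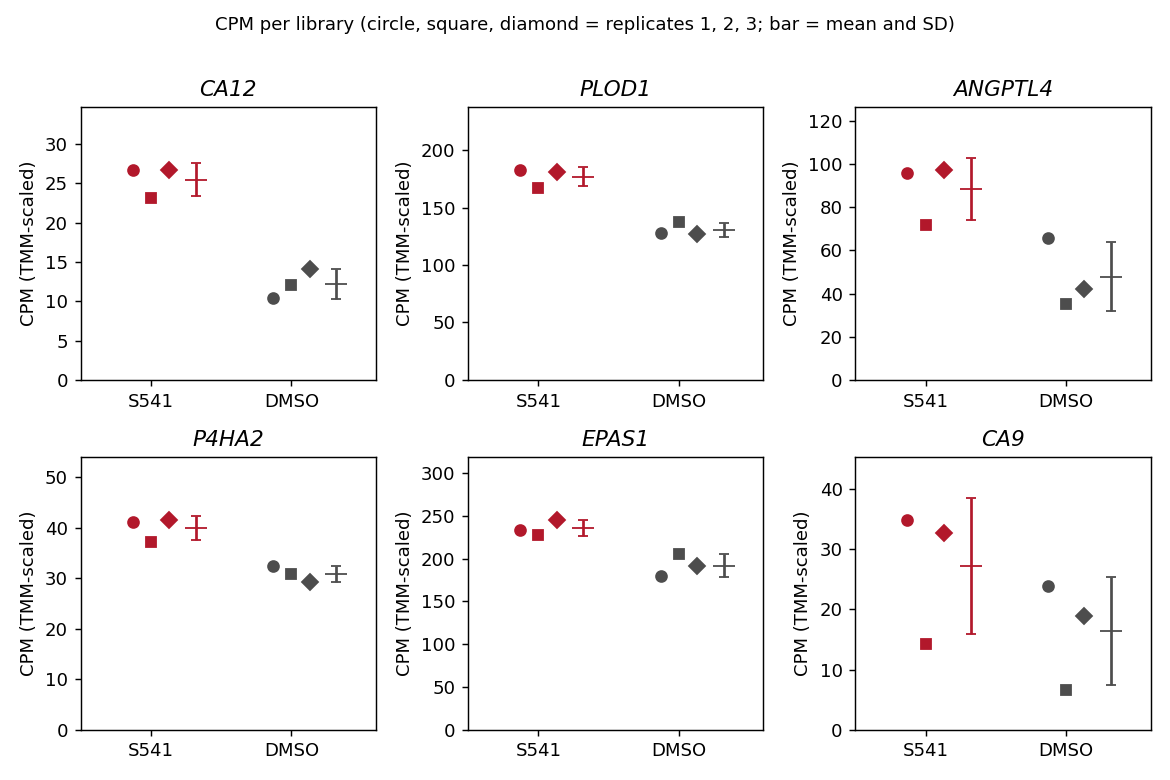
CPM in each library (y axis, from 0) for 6 members, S541 left in red and DMSO right in grey; circles, squares and diamonds are replicates 1, 2 and 3, and bars show mean and SD (n = 3). CA12 separates widely, PLOD1, P4HA2 and EPAS1 by less, and CA9 overlaps, with replicate 2 lowest in both groups.

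Collagen hydroxylases modify collagen chains in the endoplasmic reticulum: the P4HA genes encode catalytic subunits of prolyl 4-hydroxylase and the PLOD genes lysyl hydroxylases. In 3 of these 4 genes every S541 library was above every DMSO library, as in 15.9% of all tested genes (31.1% did not overlap in either direction). *PLOD1* (ENSG00000083444, chromosome 1, 11934205 to 11975538) had 183, 167 and 181 CPM with S541 and 127, 138 and 127 CPM with DMSO, with S541 higher by 0.44 on the log2 scale (SE 0.08, adjusted p = 0.0200, edgeR). This call held in 9 of the 16 alternative fits, and it ended, among the others, without S541 replicate 1 (adjusted p = 0.0784), 2 (0.0513) or 3 (0.0612) and without DMSO replicate 1 (0.0665) or 3 (0.0805), and with glmTreat against a 1.2-fold change (0.142). Its log2 fold change stayed between 0.42 and 0.48 whichever library was left out. In the fits with 1 library left out that ended the call, 349 to 628 genes were called in all, against 1298 in the main fit. The authors' deposited table gives *PLOD1* a Q-value of 0.0564.

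*P4HA2* had 41.2, 37.2 and 41.6 CPM with S541 and 32.4, 30.9 and 29.3 CPM with DMSO. The groups were apart, S541 being higher by 0.38 on the log2 scale (SE 0.10, adjusted p = 0.0582, edgeR). *P4HA2* passed in 1 of the 16 alternative fits, DESeq2 (adjusted p = 0.0399). With 1 library left out its adjusted p was 0.0826 to 0.180 (edgeR). *P4HA1* had 85.5, 72.4 and 69.0 CPM with S541 and 68.7, 53.4 and 65.3 CPM with DMSO, so S541 replicate 3 and DMSO replicate 1 nearly met, and its log2 fold change was 0.28 (adjusted p = 0.233, edgeR). *PLOD2* went the other way, with 78.3, 68.6 and 66.1 CPM with S541 and 111, 65.8 and 97.7 CPM with DMSO. DMSO replicate 2 lay below all S541 libraries and the other DMSO libraries above them. Its fold change, −0.37 on the log2 scale (adjusted p = 0.266, edgeR), became −0.56 and passed (adjusted p = 0.0272) without DMSO replicate 2. No other of the 16 alternative fits called *PLOD2*. Per length *PLOD1* was the most abundant of the 4 (23.2 ± 1.15 FPKM with S541, 16.8 ± 0.602 with DMSO), followed by *P4HA1* (16.9 ± 2.21 and 13.7 ± 1.88), *PLOD2* (5.79 ± 0.614 and 7.33 ± 1.91) and *P4HA2* (2.97 ± 0.173 and 2.25 ± 0.112).

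The *PLOD1* promoter is shown as that of the other member that passed (chr1:11934467-11934716, plus strand, RefSeq, GRCh38.p14), with GCGTG in capitals at −68 to −64 and −25 to −21.
PLOD1: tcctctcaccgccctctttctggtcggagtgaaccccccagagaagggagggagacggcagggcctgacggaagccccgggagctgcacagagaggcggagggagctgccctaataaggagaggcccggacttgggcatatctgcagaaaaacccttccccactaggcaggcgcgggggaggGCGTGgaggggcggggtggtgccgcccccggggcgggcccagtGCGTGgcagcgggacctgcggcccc
It holds no ACGTG in the 300 bases searched.

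The 6 transcriptional regulators all had fold changes above 0, as had 49.8% of all tested genes, and none of the 6 passed. *BHLHE40*, a repressor induced by HIF and by other signals, averaged 143 ± 19.3 CPM with S541 and 129 ± 4.37 CPM with DMSO (log2 fold change 0.15), and its relative *BHLHE41* was near the floor, with 9, 9 and 14 counts with S541 and 6, 8 and 13 with DMSO. *CITED2*, which competes with HIF for the coactivators CREBBP and EP300, had 89.8, 80.6 and 98.8 CPM with S541 and 66.0, 101 and 73.4 CPM with DMSO. DMSO replicate 2 was here the highest of the 6 libraries, unlike in most members. The histone demethylases *KDM3A* and *KDM4B*, which need oxygen and are HIF targets, averaged 56.0 ± 9.57 and 38.0 ± 2.34 CPM with S541 and 44.9 ± 7.23 and 32.9 ± 3.10 CPM with DMSO (log2 fold change 0.32 for *KDM3A*, adjusted p = 0.268, and 0.21 for *KDM4B*, adjusted p = 0.294, edgeR).

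*ANKRD37*, a small ankyrin repeat gene used in many hypoxia signatures, had 11.6, 8.64 and 9.95 CPM with S541 and 8.98, 9.72 and 6.89 CPM with DMSO. The groups overlapped (log2 fold change 0.24, SE 0.18, adjusted p = 0.481, edgeR), and exons of *UFSP2* on the other strand overlap 35.2% of its exon bases. Its promoter (chr4:185396591-185396840, plus strand, RefSeq, GRCh38.p14) is shown as the densest in ACGTG among those printed, with the core at −161 to −157 and −143 to −139, and on the other strand at −162 to −158, where the first and last overlap in the palindrome CACGTG.
ANKRD37: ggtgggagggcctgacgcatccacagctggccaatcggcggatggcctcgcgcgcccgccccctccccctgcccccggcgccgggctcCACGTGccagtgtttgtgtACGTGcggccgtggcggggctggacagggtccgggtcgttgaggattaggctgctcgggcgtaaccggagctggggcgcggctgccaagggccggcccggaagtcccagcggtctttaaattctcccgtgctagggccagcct
In the 300 bases searched, *ANKRD37* held 3 ACGTG and 0 GCGTG matches, and *CA12* and *PLOD1* each held 0 ACGTG and 2 GCGTG matches.

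Promoter windows of 300 bases (250 before the start and 50 after it) were sought for all members. They were found for 27 of the 32, all but *VEGFA*, *VHL*, *NDRG1*, *SLC2A3* and *FUT11*, giving 35 windows in all. ACGTG on either strand was present in 14 of them (40%), against 21.4% of 35116 promoter windows and 25.4% of 15172 windows of tested genes. GCGTG was present in 16 (45.7%), against 36.5% and 48.6%. The median GC content of the 3 sets was 69.3%, 58.7% and 65%, and windows of 1 gene can overlap. Most members were listed as HIF targets, so a higher share of the core may follow from how the list was made. These shares are therefore a description.

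Glucose and glycogen genes all had fold changes above 0, as had 49.8% of all tested genes, and none of the 5 passed. Those of *SLC2A3* and *PFKFB4* each fell below 0 in 1 of the fits with 1 library left out. *SLC2A1*, the main glucose transporter of many cancer cells, had 199.6, 205 and 224 CPM with S541 and 124, 164 and 197 CPM with DMSO. The groups did not overlap, although DMSO replicate 3 nearly reached S541 replicate 1 (log2 fold change 0.37, SE 0.16, adjusted p = 0.191, edgeR). *SLC2A3*, a transporter with a near-identical copy, *SLC2A14*, so that the split of reads is uncertain, had 46.3, 23.3 and 39.4 CPM with S541 and 33.7, 35.2 and 34.8 CPM with DMSO. The DMSO libraries lay close together inside the wide S541 range (log2 fold change 0.07, 95% interval −0.44 to 0.59).

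The bifunctional enzymes *PFKFB3* and *PFKFB4* set the level of fructose 2,6-bisphosphate, an activator of glycolysis. *PFKFB3* averaged 39.9 ± 6.03 CPM with S541 and 34.3 ± 1.84 CPM with DMSO (log2 fold change 0.22), and *PFKFB4* 23.8 ± 4.68 and 21.9 ± 5.30 CPM (0.13). *PPP1R3C*, which targets a phosphatase to glycogen, had 5.12, 4.76 and 5.36 CPM with S541 and 4.59, 2.82 and 3.51 CPM with DMSO. All S541 libraries were higher, by 0.48 on the log2 scale (SE 0.21, adjusted p = 0.202, edgeR).

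The 5 remaining targets gave no call and their groups overlapped. Most tested genes did the same: 8.19% were called and 31.1% did not overlap in either direction. *NDRG1*, a gene induced by several stresses, had 428, 247 and 484 CPM with S541 and 436, 232 and 360 CPM with DMSO. Replicate 2 was again the low library of each group (log2 fold change 0.17, SE 0.28, adjusted p = 0.756, edgeR). *ERRFI1*, a feedback inhibitor of the EGF receptor, had 75.1, 53.7 and 61.6 CPM with S541 and 60.9, 30.0 and 41.5 CPM with DMSO, and S541 replicate 2 fell below DMSO replicate 1 (0.52, SE 0.25, adjusted p = 0.234, edgeR). *FAM162A*, a mitochondrial protein gene induced by HIF, averaged 77.9 ± 4.72 CPM with S541 and 60.0 ± 15.7 CPM with DMSO (0.38). For *FAM162A* this was 0.57 without DMSO replicate 1 and 0.19 without DMSO replicate 2, and for *ERRFI1* it was 0.82 and 0.31. *TMEM45A* averaged 27.9 ± 4.53 and 25.9 ± 4.26 CPM (0.11). *FUT11*, a fucosyltransferase gene, averaged 37.9 ± 5.92 CPM with S541 and 41.9 ± 4.47 CPM with DMSO (−0.14).

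The libraries numbered 2 were low in many members. S541 replicate 2 was the lowest S541 library in 23 of 32 members (71.9%), against 32.6% of all tested genes. DMSO replicate 2 was the lowest DMSO library in 20 of 32 (62.5%), against 39.1% of all tested genes. On the log2 CPM scale the median member lay 0.13 below its group mean in S541 replicate 2 and 0.14 below it in DMSO replicate 2. The median over all tested genes deviated by less than 0.01 in both libraries. TMM scaling holds that median near 0, so it is no measure of how far a library departs in other genes. The chi-square per degree of freedom between libraries was 26.9 for DMSO replicates 1 and 2 and 24.3 for DMSO replicates 2 and 3. It was 12.9 for DMSO replicates 1 and 3 and at most 16.5 between S541 libraries. By this measure DMSO replicate 2 stood apart from its group, and S541 replicate 2 did not. The part of this in the low values of the members was not tested. The labels do not say that equal numbers mark a shared culture or day. With both libraries left out, a choice made after seeing this pattern, *CA12* (log2 fold change 1.12, adjusted p = 0.0353, edgeR) and *PLOD1* (0.52, adjusted p = 0.0386) were the members called, and *CA9* had a log2 fold change of 0.66 (adjusted p = 0.0756).

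**Figure D4:**
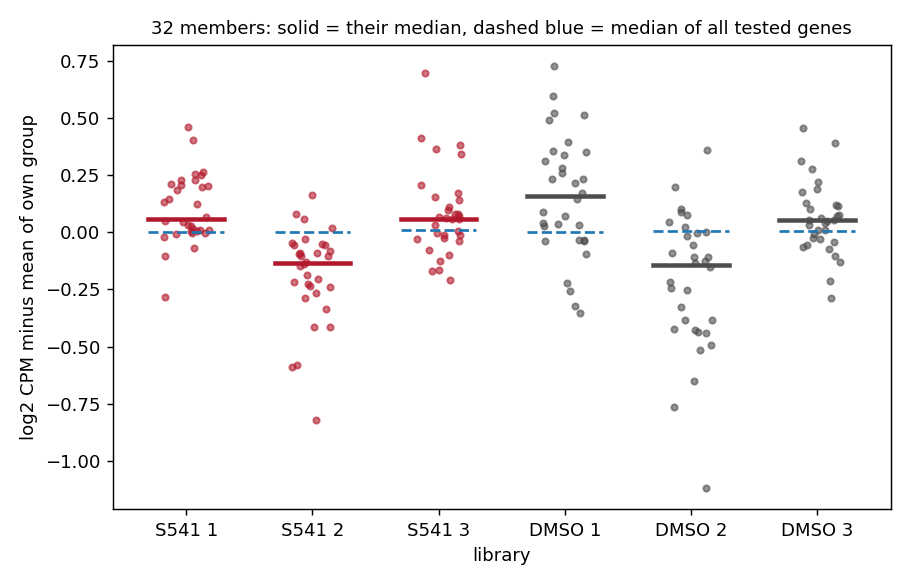
Log2 CPM of each of the 32 members minus the mean of its own group (y axis), by library (x axis), S541 in red and DMSO in grey. Solid lines are medians of the members and dashed blue lines medians of all tested genes, which TMM scaling holds near 0. The members' medians lie below 0 in S541 replicate 2 and DMSO replicate 2 and above 0 in the other 4 libraries.

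**Figure D5:**
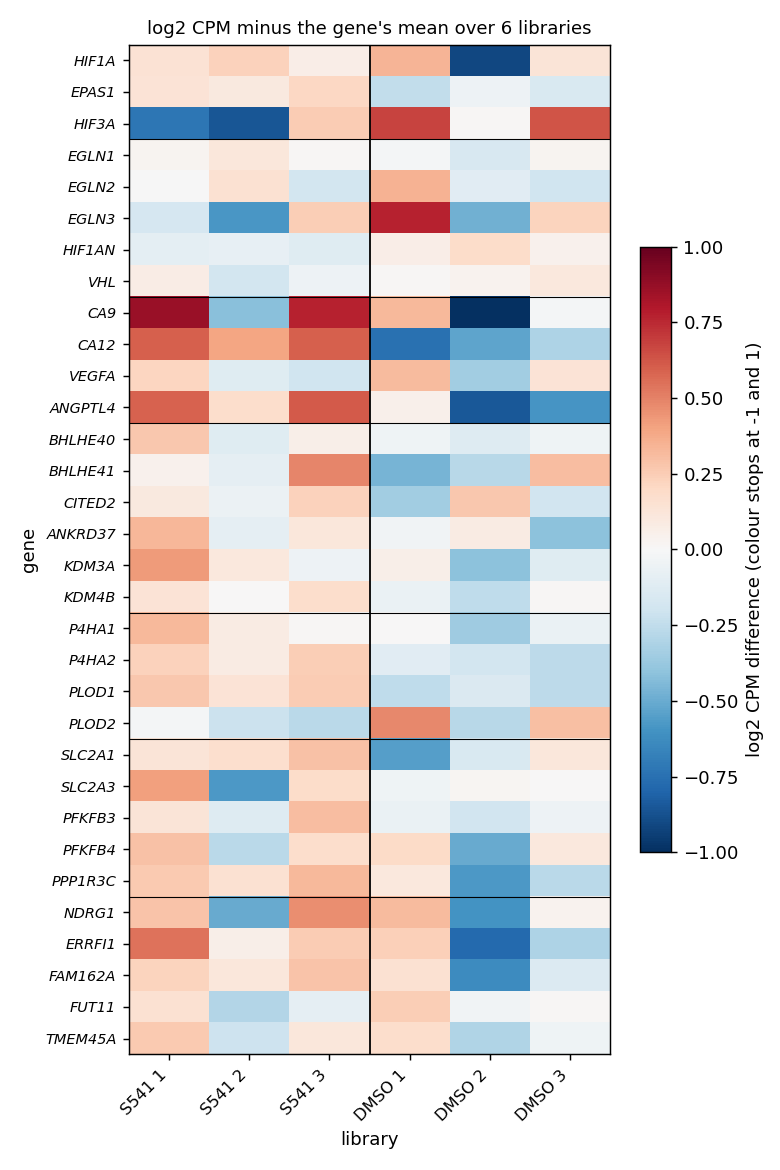
Log2 CPM minus the gene's mean over the 6 libraries (colour, from −1 to 1) for the 32 members (rows, by role) and libraries (columns, S541 left of the line). CA12 is red in all S541 and blue in all DMSO libraries, while HIF1A and CA9 are darkest blue in DMSO replicate 2.

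Other genes of the pathway were counted in 3 lists. Of 12 HIF partners and genes of HIF degradation, 1 rose and none fell (8.33%, close to the 8.19% of all tested genes), with a median log2 fold change of 0.0071. It was *ARNT2*, a relative of the beta subunit *ARNT*, with 7.08, 6.45 and 6.66 CPM with S541 and 1.42, 1.26 and 1.87 CPM with DMSO. The groups were far apart, the log2 fold change being 2.14 (SE 0.20, adjusted p = 0.00234, edgeR), larger than that of any of the 32 members, and the call held in each alternative fit. *ARNT* itself averaged 61.2 CPM with S541 and 59.6 CPM with DMSO (0.04).

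Of 19 glycolytic HIF targets, 1 rose and none fell (5.26%, against 8.19% of all tested genes), with a median log2 fold change of 0.05. Hexokinase 2 (*HK2*), which starts glucose metabolism, had 122, 86.0 and 104 CPM with S541 and 69.7, 47.7 and 65.9 CPM with DMSO (0.77, SE 0.18, adjusted p = 0.0379, edgeR). Its groups did not overlap. The call ended without S541 replicate 1 (adjusted p = 0.121), 2 (0.0610) or 3 (0.0953), without DMSO replicate 1 (0.0595) or 3 (0.0962), with no filter on low counts (0.0616) and with glmTreat (0.107). The log2 fold change of *HK2* stayed between 0.62 and 0.90 whichever library was left out. In the fits with 1 library left out that ended the call, 349 to 628 genes were called in all, against 1298 in the main fit.

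Of 28 tested genes among 29 further HIF targets, 3 rose and 1 fell (14.3% called, against 8.19% of all tested genes, 4.02% higher and 4.17% lower), with a median log2 fold change of 0.25. *FLT1* was at 0 in every library. The secreted glycoprotein *STC2* had 140, 114 and 130 CPM with S541 and 44.3, 28.3 and 41.3 CPM with DMSO (1.75, SE 0.17, adjusted p = 0.00302, edgeR). Its groups were well separated and the call held in each alternative fit.

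*JMJD6*, which encodes a JmjC-domain oxygenase, had 84.3, 76.3 and 85.4 CPM with S541 and 66.6, 57.2 and 63.7 CPM with DMSO (0.39, adjusted p = 0.0474, edgeR). The *JMJD6* call ended whichever library was left out (adjusted p from 0.0750 to 0.148, edgeR), while its log2 fold change stayed between 0.33 and 0.45. The vasoconstrictor *EDN1* fell to 9.39, 11.5 and 10.6 CPM with S541, against 17.6, 25.2 and 23.9 CPM with DMSO (−1.08, SE 0.17, adjusted p = 0.0114, edgeR), and its call ended without S541 replicate 1 (0.0526). *STC2*, *EDN1* and *ARNT2* also respond to other pathways. The summed level of the A549 markers given above moved between the same groups, and its part in these results was not tested.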

How the data were processed

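Whole-number read counts per gene and FPKM values were made by the authors and used as deposited, with the library of each column taken from its title. The authors' deposited log2 fold changes and p-values (with Q-values) are quoted where named. The build is hg38 and edgeR was used, per the submitters' processing notes; the sources used here do not name the aligner, the counter or the use of strand, which were not given. The test on the table of 58302 genes used edgeR 4.0.16 under R 4.3.3 (TMM, filterByExpr, group as the only term, quasi-likelihood test), with 2-sided p-values adjusted over 15847 tested genes by the Benjamini-Hochberg method at 0.05. The SE is the absolute log2 fold change divided by the square root of F, and intervals are 95% on the t distribution of that fit. Deviations between libraries used log2 CPM with a prior count of 2. Exon overlap used GENCODE release 29. The functions were tested on simulated counts. Total counts of 13956648 to 17044139 limit what is seen in genes near the floor. All 32 members are reported; from each further list, up to 4 genes past the threshold, by size of change, that reach 1 CPM on average in the higher group are named (where none passed, the 2 most abundant). *ARNT*, *FLT1* and single markers were added after their values were seen. The values of 1 counted gene are not reported here. The members and lists were chosen with earlier results of these data known. Alternatives were DESeq2 1.42.0, limma-voom (limma 3.58.1), other scalings, filters and fits, a replicate block and each library left out.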

Additional observations from a re-analysis of the deposited data

How the results depend on the processing

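*CA12* was called in all 16 alternative fits, with log2 fold changes from 0.95 to 1.18. Leaving out 1 library gave 349 to 1330 genes called in all, 1 to 3 members higher, 0 to 1 lower, and 3 to 5 genes of the further lists higher and 0 to 2 lower, where the fit of all 6 libraries gave 1298, 2, 0, 5 and 1. The highest count came without DMSO replicate 2, where *EPAS1* and *PLOD2* passed. With no filter on low counts 753 genes and 3 list genes higher were called. DESeq2 called 4 members higher, 8 list genes higher and 3 lower. glmTreat called 427 genes, 1 member and 3 list genes higher. Leaving out both libraries numbered 2 gave 589 genes and 8 list genes higher. Over the fits with 1 library left out, the log2 fold change crossed 0 for *HIF1A* (−0.091 to 0.45), *EGLN2* (−0.14 to 0.15), *VEGFA* (−0.25 to 0.060), *SLC2A3* (−0.13 to 0.32), *PFKFB4* (−0.063 to 0.29), *NDRG1* (−0.044 to 0.42) and *TMEM45A* (−0.0058 to 0.24), and for *HIF1A* without both libraries numbered 2 (−0.13). Among single genes, 487 values kept direction and call, 7 lost the call, 7 gained it and 10 changed sign. None of those that changed sign was called in any fit, and the cause of the changes was not tested. The labels do not tie equally numbered libraries, so the numbers were not taken as pairs. Deviations from the group mean of equally numbered libraries correlated over all tested genes at 0.10, −0.08 and −0.08. For unequal numbers these correlations were −0.14 to 0.20. Over the 32 members they were 0.35, 0.44 and 0.38 for equal numbers and −0.34 to 0.09 for unequal numbers. Whether equal numbers share a culture or day was not tested. With the replicate block 392 genes were called, with *ANGPTL4* (adjusted p = 0.0414, edgeR) and *CA12* (0.0334) the members called. *PLOD1* (0.0905) was not called with the block, nor was *CA9* (0.0571, against 0.391 without the block). *HIF3A* and *BHLHE41*, with at most 27 counts per library, could show only large differences at this depth.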
